A study of Mus musculus with 18 samples.

Results

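The change from day 0 to day 2 of retinoic acid differentiation was compared between mouse embryonic stem cells (ESCs) labelled Oct1 cKO and parental ESCs. The quantity is the genotype by day interaction, the Oct1 cKO course (log2 level at day 2 minus day 0) minus the parental course. It was read from 12 of the 18 libraries, 3 each of Oct1 cKO cells at day 2, Oct1 cKO cells at day 0, parental cells at day 2 and parental cells at day 0, grouped by their source label. The other 6 libraries, from day 6, share no library with these courses and are used as a later reading of the same genes. Differentiated cells stood on 0.01% gelatin in medium with 1.5 ug/ml retinoic acid, non-essential amino acids, glutamine and antibiotics, and day 0 cells are called ESCs with no treatment stated. The labels name neither the agent nor the part of the gene behind the cKO, nor whether each line is a single clone. Separate cultures are not stated for the 3 libraries of each group either, so p-values measure a spread between libraries that may be only technical.

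Oct1 is the product of Pou2f1, a POU-domain transcription factor that is made in most cells and binds the octamer DNA element, as its relative Oct4 (Pou5f1) does in pluripotent cells. Retinoic acid binds nuclear receptors that switch on Hox genes and other developmental regulators while the pluripotency network shuts down. An interaction asks whether the same signal moved a gene by the same amount in both genotypes, which a comparison at a single day cannot show, because a gene may already differ at day 0. A gene can thus agree in both genotypes, move the same way by different amounts, move in a single genotype, or move in opposite directions.

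The 12 libraries held 13694126 to 19072464 counts each. In Oct1 cKO cells at day 0, replicate 3 stood apart from the other 2, with a chi-square statistic per degree of freedom of 11.6 to 12 against them, while those 2 differed by 1.24. Ribosomal-protein genes took 6.68% of the counts of that library, against 5.40% and 5.46% in the other 2. Leaving it out gave 5627 genes higher and 4921 lower in the interaction, close to the full counts given below. Summed over 26 genes of general and naive pluripotency, levels were 4160 to 4360 CPM (counts scaled to library size and a scaling factor per library) in Oct1 cKO cells at day 2 and 12800 to 13400 CPM at day 0. In parental cells the same sums were 2450 to 2490 CPM at day 2 and 10900 to 11000 CPM at day 0, so both day 0 groups carried the markers of their ESC label. In bulk RNA, fewer cells of a type and less RNA per cell cannot be told apart.

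Pou2f1, the targeted gene, was lower in Oct1 cKO cells at each day and was lower at day 2 than at day 0 in both genotypes. It had 59.5, 60.8 and 58.8 CPM in Oct1 cKO cells at day 2, against 87.2, 88.2 and 62.4 CPM at day 0, the lowest of these 3 in replicate 3. Parental cells had 105, 97.9 and 106 CPM at day 2, against 135, 124 and 127 CPM at day 0. The genotypes did not overlap at either day, and the interaction was -0.08 ± 0.14 (log2 ± SE, 95% interval -0.38 to 0.22, adjusted p = 0.66 by edgeR's quasi-likelihood test). Without replicate 3 of Oct1 cKO cells at day 0 it was -0.24, with an adjusted p of 0.00533. The table gives a level per gene, which does not show which part was deleted.

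Day 2 differed from day 0 for 14039 genes (76.5% of 18352 tested, 41.0% up and 35.5% down) in Oct1 cKO cells and for 14837 genes (80.8%, 43.2% up and 37.7% down) in parental cells. Of the 18352 genes, 10463 (57.0%) had an interaction below an adjusted p of 0.05. The Oct1 cKO course lay above the parental course for 5526 genes (30.1%) and below it for 4937 genes (26.9%). At least 2-fold differences were found for 4208 genes (22.9%), 1712 higher (9.33%) and 2496 lower (13.6%). The libraries of the courses did not overlap for 9471 genes, 51.6% of those tested. Of the called genes, 52.8% were higher and 47.2% lower. With library sizes as the only scaling, 39.3% were higher and 60.7% lower, and the median interaction over all genes moved to -0.16, against 0.01 with the scaling factors used here, so small differences on either side depend on that choice. The share higher was 47.6% with DESeq2, 47.7% with its size factors, 49.5% without the filter on low counts and 50% with the 12 libraries alone. It was 49.2% to 49.3% when any 1 parental library of day 2 was left out. Which direction held more called genes thus depended on the setting.

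The sort by course used the calls of both courses and of the interaction, which share libraries, and is a description with no test of its own. Courses of 2372 genes agreed, with both called the same way and the interval of the interaction within 1.5-fold either way. Both courses went the same way with a called difference in size for 5466 genes, the Oct1 cKO course being smaller for 2550 of them and larger for 2916. Opposite courses were called for 1599 genes (8.71% of those tested), of which 909 differed by at least 2-fold. A change was called only in Oct1 cKO cells for 1507 genes and only in parental cells for 1830, each with a called interaction. For 2603 further genes both courses were called without a call of the interaction, and its interval was too wide for the genes to be placed among those that agree. The remaining genes were 1459 with 1 course called and no called interaction, 61 with a called interaction alone and 1455 with no call.

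**Figure D1:**
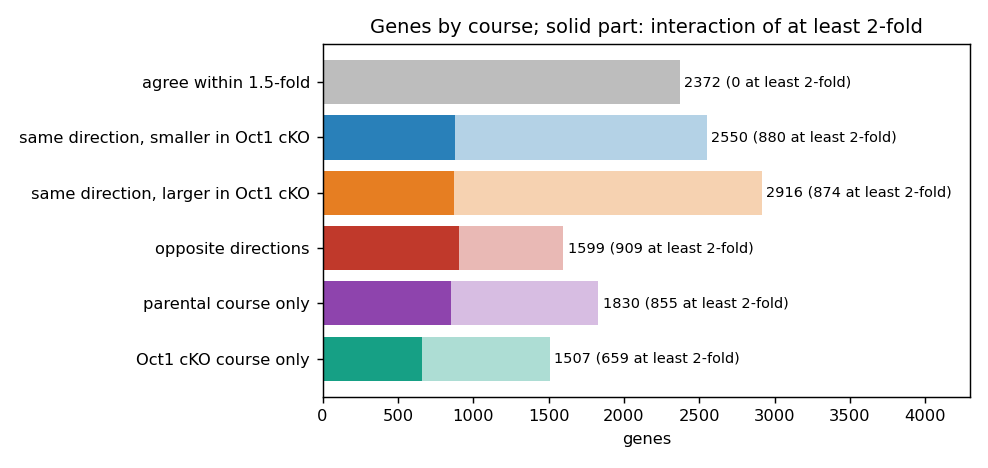
Number of genes by how the Oct1 cKO and parental courses compared, with the solid part of each bar showing interactions of at least 2-fold and the pale part smaller ones. Same-direction courses of different size were the most numerous, and 909 of 1599 opposite courses differed by at least 2-fold.

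The genes were also described by the size of the course itself. Where parental cells rose by at least 4 on the log2 scale (622 genes), the median was 3.10 in the Oct1 cKO course and 4.88 in the parental course. In that bin 40.5% of genes were in the classes smaller in Oct1 cKO cells or parental only, and 1.29% were larger. The rest of the bin had no called interaction. Where parental cells fell by at least 4 (217 genes), the medians were -4.09 in the Oct1 cKO course and -4.86 in the parental course. There 38.7% were smaller in Oct1 cKO cells or parental only and 4.15% larger, and the rest again had no called interaction. Among the 3052 genes that rose by less than 1 in parental cells, 33.1% rose more in Oct1 cKO cells and 16.3% fell there, against 2.64% that fell there among the 2005 genes that rose by 2 to 4. Sorted by the Oct1 cKO course instead, the 384 genes that rose there by at least 4 had medians of 4.84 in the Oct1 cKO course and 4.11 in the parental course. The 216 genes that fell there by at least 4 had medians of -4.91 in the Oct1 cKO course and -4.13 in the parental course. Whichever course sorted the genes had the larger median at the extremes, and since that course is part of the interaction and of the classes, these bins are a description only. Across all 18352 genes the courses correlated with a Pearson r of 0.73 and a Spearman rho of 0.70, where the points are genes of the same libraries.

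**Figure D2:**
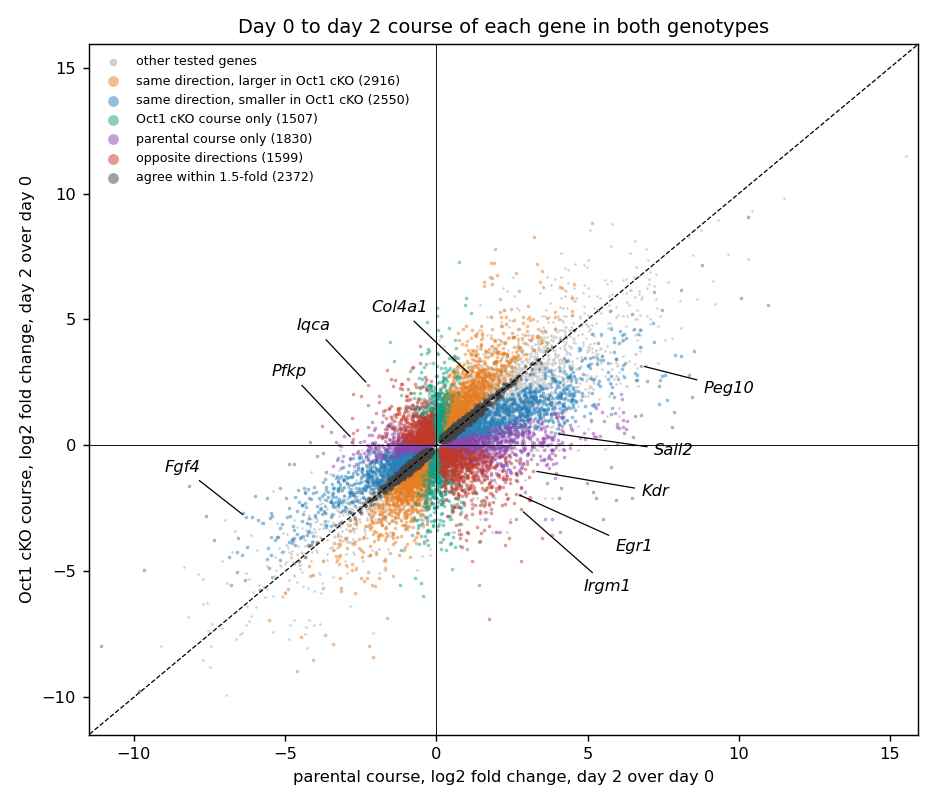
Log2 fold change from day 0 to day 2 in Oct1 cKO cells (vertical axis) against parental cells (horizontal axis), a point per tested gene, coloured by the sort of courses, with the dashed line marking equal courses. Kdr, Egr1 and Irgm1 lie at the lower right, Iqca and Pfkp at the upper left, and Peg10 and Fgf4 between the horizontal axis and the dashed line.

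Kdr, Irgm1 and Egr1 rose in parental cells and fell in Oct1 cKO cells, and Iqca did the reverse. These genes were chosen as examples of opposite courses, so their values are a description. Kdr (ENSMUSG00000062960, GRCm38 chr5:75932827-75978458, minus strand) encodes the VEGF receptor 2 of vascular and early mesodermal cells. It had 0.634, 0.933 and 0.602 CPM in Oct1 cKO cells at day 2 and 1.73, 1.73 and 1.07 CPM at day 0, against 10.4, 11.1 and 9.27 CPM in parental cells at day 2 and 1.12, 1.24 and 0.930 CPM at day 0. The day 0 groups overlapped and every parental library at day 2 lay above all others, so the genotypes parted during the course. The interaction was -4.22 ± 0.35 (adjusted p = 3.51e-13), an 18.6-fold difference between courses.

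Egr1 (ENSMUSG00000038418) encodes a zinc-finger factor induced within minutes by growth-factor signalling. Its levels were 0.824, 1.28 and 1.003 CPM in Oct1 cKO cells at day 2 and 3.83, 4.16 and 3.89 CPM at day 0, against 22.1, 20.9 and 19.5 CPM in parental cells at day 2 and 3.69, 3.32 and 2.98 CPM at day 0. The genotypes started within 1 CPM of each other on average and ended 19.9-fold apart, with a log2 difference at day 2 of -4.31 ± 0.17. The interaction was -4.56 ± 0.28 (adjusted p = 1.40e-15). Egr1 has 3 exons in the annotated transcript with the most, and its other transcripts may have fewer. Genes with few exons leaned lower in the interaction as a class, as given further on. The part of gene structure in this result was not tested.

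Irgm1 (ENSMUSG00000046879, GRCm38 chr11:48861968-48871683, minus strand) encodes an interferon-inducible GTPase of cell-autonomous immunity. It had 1.71, 1.81 and 2.61 CPM in Oct1 cKO cells at day 2 and 12.3, 11.3 and 11.9 CPM at day 0, against 44.8, 45.5 and 49.8 CPM in parental cells at day 2 and 6.50, 6.13 and 7.69 CPM at day 0. All 4 groups were separate, Oct1 cKO cells being higher at day 0 and lower at day 2. The interaction of -5.33 ± 0.16 (adjusted p = 2.67e-25) corresponds to a 40.2-fold difference between courses. Iqca (ENSMUSG00000026301, GRCm38 chr1:90042132-90153401, minus strand), annotated as an IQ-motif protein with an AAA domain, had 5.07, 4.72 and 4.01 CPM in Oct1 cKO cells at day 2 and 0.602, 1.41 and 0.627 CPM at day 0. Parental cells had 1.08, 0.808 and 0.598 CPM at day 2 and 3.62, 3.99 and 4.40 CPM at day 0, so the genotypes exchanged places, with an interaction of 4.66 ± 0.34 (adjusted p = 1.97e-14).

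**Figure D3:**
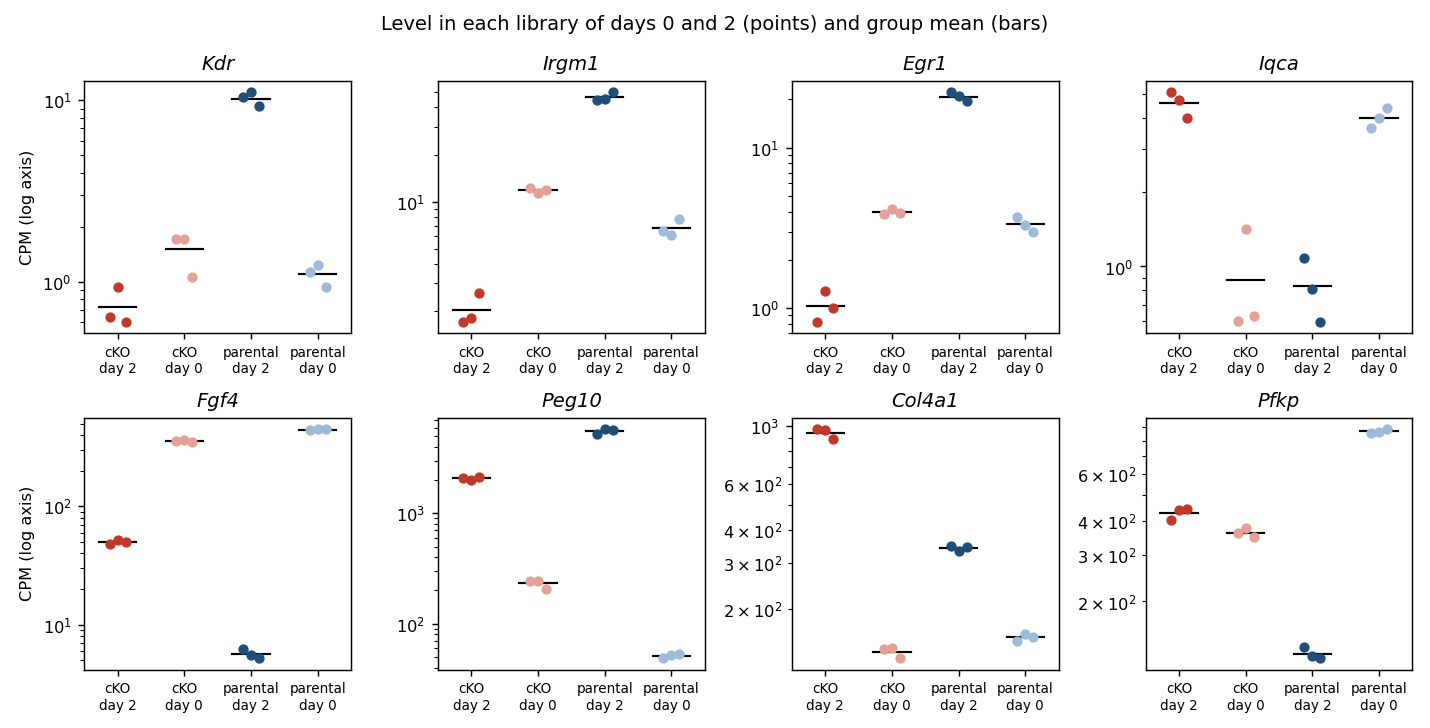
CPM of 8 genes in each library (points, logarithmic axis) with group means (bars), Oct1 cKO left of parental and day 2 left of day 0. Kdr, Irgm1 and Egr1 are lowest in Oct1 cKO cells at day 2 and highest in parental cells at day 2, and Peg10, Fgf4 and Col4a1 moved the same way in both genotypes by different amounts.

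Other genes that fell in Oct1 cKO cells and rose in parental cells included Sox1, Eomes, Cdh2 and Jrk. Sox1, a transcription factor of neural progenitors with a single exon, had 0.507, 0.992 and 0.869 CPM in Oct1 cKO cells at day 2 and 4.29, 3.69 and 3.83 CPM at day 0, against 5.38, 4.95 and 5.48 CPM in parental cells at day 2 and 0.750, 0.506 and 1.43 CPM at day 0. The genotypes again exchanged places, without overlap at either day (interaction -4.87 ± 0.35, adjusted p = 2.09e-14). Eomes, a T-box factor of early mesoderm and endoderm, had 9.19, 8.98 and 9.23 CPM in Oct1 cKO cells at day 2 and 13.6, 14.1 and 15.4 CPM at day 0, against 14.4, 15.7 and 15.9 CPM in parental cells at day 2 and 4.94, 5.12 and 6.14 CPM at day 0. Its interaction was -2.16 ± 0.15 (adjusted p = 4.14e-15), and parental cells reached by day 2 about the level that Oct1 cKO cells held at day 0. Cdh2, which encodes N-cadherin, fell by 1.32 in Oct1 cKO cells and rose by 1.36 in parental cells on the log2 scale (interaction -2.69, adjusted p = 5.43e-17). Jrk had the lowest interaction among named opposite genes after Irgm1, at -4.88 (adjusted p = 1.85e-19), with 0.444 to 0.642 CPM in Oct1 cKO cells at day 2 and 8.22 to 9.34 CPM in parental cells at day 2.

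In the other direction, genes that rose in Oct1 cKO cells and fell in parental cells included Nupr1, Epcam and Elavl3. Nupr1, a small chromatin-associated protein of the stress response, had 63.6, 64.6 and 66.4 CPM in Oct1 cKO cells at day 2 and 7.29, 5.57 and 7.09 CPM at day 0, against 11.8, 12.6 and 9.57 CPM in parental cells at day 2 and 16.4, 15.5 and 17.4 CPM at day 0. Oct1 cKO cells were the lowest group at day 0 and the highest at day 2 (interaction 3.81 ± 0.13, adjusted p = 7.14e-24). Epcam, an epithelial adhesion molecule, and Elavl3, an RNA-binding protein of neurons, also rose in Oct1 cKO cells and fell in parental cells, with interactions of 1.09 and 2.79 (adjusted p = 4.90e-16 and 2.72e-15).

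The gene lists were written from textbook knowledge, with earlier results of these data known. The example genes are members and are in the counts. Irgm1 is in the interferon list, Kdr in that of primitive streak and early mesoderm, Egr1 in the immediate-early list and Iqca in the motile cilium list. The next paragraphs give, for each list, how many members had a called interaction, beside the 30.1% higher and 26.9% lower over all tested genes and an overall median of 0.01. They take the lists from signalling to developmental regulators, pluripotency and metabolism.

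**Figure D4:**
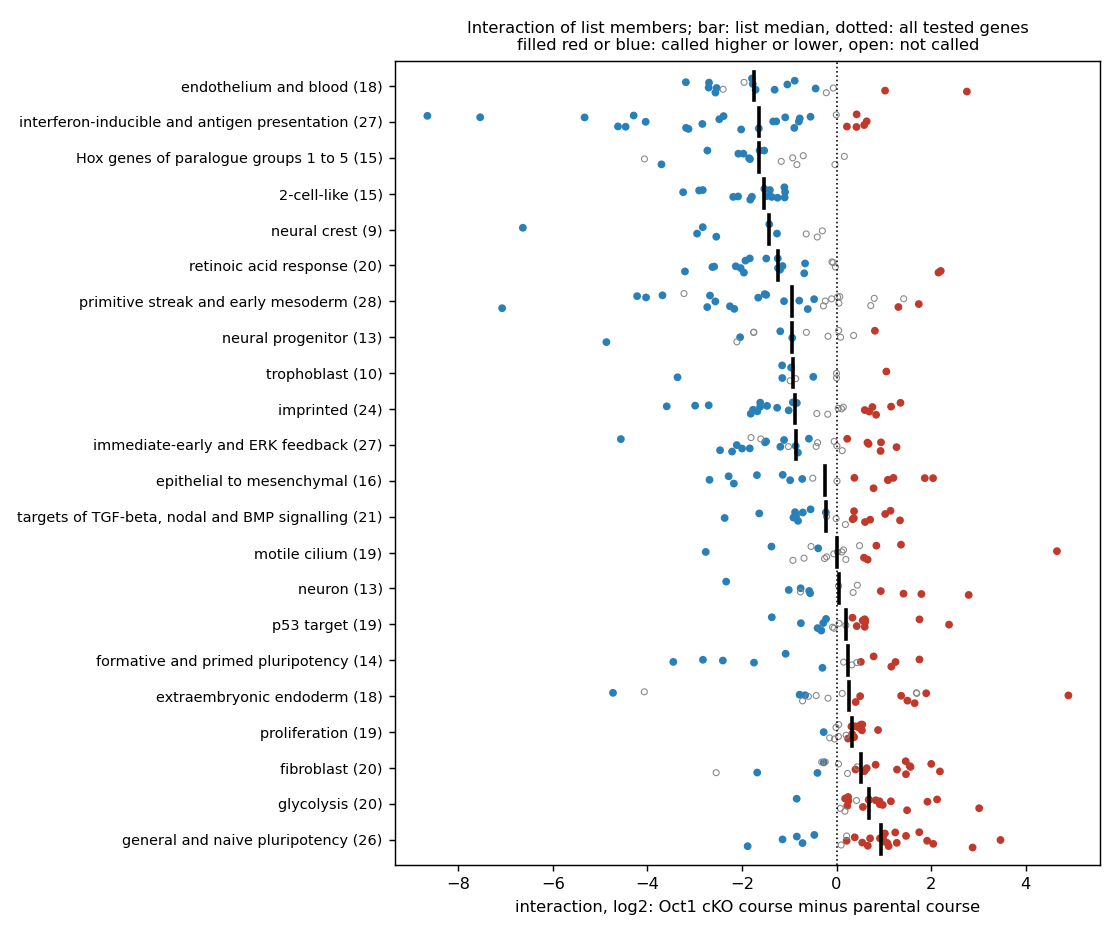
Interaction (log2, Oct1 cKO course minus parental course) of each member of 22 gene lists, with the tested number of members in brackets, list medians as bars and the median of all tested genes as a dotted line. All 15 genes of the 2-cell-like list were called lower, and 19 of 26 on the general and naive pluripotency list were called higher.

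Interferon-inducible and antigen presentation genes leaned lower in the interaction. Of 27 tested, 21 were lower and 5 higher in the interaction, with a median of -1.64. Of the 23 members off chromosome 11, 17 were lower and the median was -1.29. The median Oct1 cKO course was 0.42 and the median parental course 2.33. In 7 genes the courses were opposite, among them Isg15, a ubiquitin-like antiviral protein. Isg15 had 0.824, 0.292 and 0.602 CPM in Oct1 cKO cells at day 2 and 1.43, 2.20 and 1.82 CPM at day 0, against 6.195, 6.87 and 8.77 CPM in parental cells at day 2 and 1.19, 0.844 and 1.12 CPM at day 0 (interaction -4.46 ± 0.39, adjusted p = 1.60e-12). Only parental cells at day 2 stood high.

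Gbp2, a guanylate-binding protein induced by interferon gamma, rose in both genotypes. It had 8.11, 8.87 and 9.96 CPM in Oct1 cKO cells at day 2 and 0.827, 0.784 and 0.627 CPM at day 0, against 76.6, 87.8 and 81.3 CPM in parental cells at day 2 and 0.188, 0.338 and 0.496 CPM at day 0. Oct1 cKO cells started higher and ended lower, with an interaction of -4.29 ± 0.47 (adjusted p = 5.84e-10). Irf1, a transcription factor that acts on many genes of the list, had 41.2, 43.1 and 46.5 CPM in Oct1 cKO cells at day 2 and 32.1, 29.9 and 33.0 CPM at day 0, against 229, 248 and 250 CPM in parental cells at day 2 and 42.6, 44.3 and 43.9 CPM at day 0. The parental rise was 5.56-fold and that in Oct1 cKO cells 1.37-fold (interaction -2.02 ± 0.08, adjusted p = 2.05e-21). The 5 members with a higher interaction were B2m, H2-K1, Stat2, Ifitm2 and Bst2, parts or regulators of antigen presentation and antiviral defence, all with interactions below 2-fold.

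The 250 bases before the RefSeq start of these 4 genes are shown because the list is defined by a response that runs through known promoter elements. They come from RefSeq promoters of build GRCm38.p6, whose starts can differ from those of the GENCODE gene spans given above (for Irgm1 and Gbp2 the window overlaps the span), are written on the strand of the gene, and capitals mark matches, on either strand, to the interferon-stimulated response element, searched as 2 copies of GAAA with 2 bases between them, or the gamma-activated site, searched as TTCNNNGAA. They are Irgm1 at chr11:48871421-48871670 (minus), Isg15 at chr4:156200819-156201068 (minus), Gbp2 at chr3:142620413-142620662 (plus) and Irf1 at chr11:53769764-53770013 (plus).
Irgm1: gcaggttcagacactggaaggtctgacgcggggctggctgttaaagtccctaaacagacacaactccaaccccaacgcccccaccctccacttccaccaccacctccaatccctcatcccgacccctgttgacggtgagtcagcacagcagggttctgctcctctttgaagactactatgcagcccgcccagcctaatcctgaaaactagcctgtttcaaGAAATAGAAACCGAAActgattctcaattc
Isg15: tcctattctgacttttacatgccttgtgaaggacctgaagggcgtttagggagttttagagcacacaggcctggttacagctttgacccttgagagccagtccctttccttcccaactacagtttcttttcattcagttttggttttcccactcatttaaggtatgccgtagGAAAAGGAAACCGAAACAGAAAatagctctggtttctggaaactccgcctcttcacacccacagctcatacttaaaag
Gbp2: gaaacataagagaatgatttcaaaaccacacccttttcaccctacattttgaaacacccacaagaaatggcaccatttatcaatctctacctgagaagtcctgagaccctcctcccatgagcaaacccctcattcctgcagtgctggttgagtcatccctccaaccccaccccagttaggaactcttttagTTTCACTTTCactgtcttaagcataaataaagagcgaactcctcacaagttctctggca
Irf1: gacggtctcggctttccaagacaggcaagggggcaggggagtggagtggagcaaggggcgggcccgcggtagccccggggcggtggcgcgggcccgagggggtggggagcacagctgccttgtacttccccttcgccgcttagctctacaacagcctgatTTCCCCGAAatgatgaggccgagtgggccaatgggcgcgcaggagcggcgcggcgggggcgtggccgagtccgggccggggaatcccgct
Irgm1 has 2 overlapping and Isg15 3 overlapping matches to the first element, Gbp2 has 1 on the opposite strand, and Irf1 has 1 match to the second element. A further RefSeq window of Irf1, at chr11:53770223-53770472, holds neither, the window of Kdr holds neither, and that of Iqca, whose interaction was higher, holds 1 match to the first element. Shares were counted per gene symbol, with a match in any of its windows. The first element occurred in 13 of 24 list members with a promoter (54.2%) and in 3.46% of all 27025 symbols. The second occurred in 7 of 24 (29.2%) and in 8.13% of all. The octamer ATGCAAAT, the element that Oct1 is known to bind, occurred in 0 of the 24 and in 1.81% of all symbols. Among tested genes with a promoter it occurred in 1.94% of 1082 genes at least 2-fold higher, 1.82% of 1649 genes at least 2-fold lower and 1.62% of all 12748. These are matches of letters within 250 bases, and a window without a match says nothing of sites elsewhere.

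Immediate-early genes and feedback genes of the ERK pathway leaned lower in Oct1 cKO cells. Of 27 tested, 13 were lower and 6 higher, with a median of -0.86. Jun, a subunit of the AP-1 transcription factor, had 10.9, 9.80 and 12.8 CPM in Oct1 cKO cells at day 2 and 21.8, 20.5 and 23.6 CPM at day 0, against 73.3, 69.2 and 72.0 CPM in parental cells at day 2 and 26.5, 25.5 and 25.1 CPM at day 0. Jun fell in Oct1 cKO cells and rose in parental cells (interaction -2.46 ± 0.11, adjusted p = 5.05e-20). Dusp6, a phosphatase that turns ERK off and is itself induced by it, rose in both genotypes, to 81.6 to 87.7 CPM in Oct1 cKO cells at day 2 and to 228 to 250 CPM in parental cells at day 2 (interaction -2.21, adjusted p = 7.43e-21). Etv5, an ERK-responsive ETS factor, went the other way, with a fall of 2.25 in Oct1 cKO cells and of 3.18 in parental cells on the log2 scale. Jun has a single exon, and 7 of the 27 members have 1 or 2. With only genes of at least 3 exons, 8 members were lower and the median was -0.72.

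Mesodermal, vascular and neural crest genes also leaned lower in the interaction. Of 28 tested genes of primitive streak and early mesoderm, 16 were lower and 2 higher, with a median interaction of -0.95. Of the 28, 9 have 1 or 2 exons, and 12 of the 19 longer ones were lower with a median of -1.11. Their summed level was 92.3 to 103 CPM in Oct1 cKO cells at day 2 and 67.9 to 72.0 CPM at day 0, against 155 to 166 CPM in parental cells at day 2 and 46.8 to 50.1 CPM at day 0. Tcf15, a helix-loop-helix factor of paraxial mesoderm, had 6.53, 6.59 and 6.89 CPM in Oct1 cKO cells at day 2 and 6.47, 5.33 and 6.09 CPM at day 0, against 9.72, 11.6 and 10.2 CPM in parental cells at day 2 and 2, 1.86 and 2.05 CPM at day 0. A change was called in parental cells alone (interaction -2.25 ± 0.23, adjusted p = 9.58e-11). Fgf8, a growth factor of the streak, and Foxc2, a forkhead factor of mesoderm, were the 2 members with a higher interaction. The count of higher members was 1 when any of 7 of the 12 libraries was left out, and with library sizes as the only scaling.

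The endothelium and blood list had 12 of 18 tested genes lower and 2 higher, with a median of -1.74, although its summed level was lower at day 2 than at day 0 in both genotypes. It was 209 to 217 CPM in Oct1 cKO cells at day 2 and 250 to 256 CPM at day 0, against 245 to 269 CPM in parental cells at day 2 and 395 to 401 CPM at day 0. Tie1, a receptor of endothelial cells, rose to 37.6 to 45.5 CPM in Oct1 cKO cells at day 2, against 14.9 to 16.5 CPM at day 0, and to 26.5 to 32.3 CPM in parental cells at day 2, against 3.26 to 3.31 CPM at day 0 (interaction -1.79, adjusted p = 9.31e-12). Its level was thus higher in Oct1 cKO cells at both days and the gap narrowed. Pecam1, an adhesion molecule of endothelium that ESCs also express, weighed most in the sum and went the other way. It had 79.5, 74.1 and 69.0 CPM in Oct1 cKO cells at day 2 and 108, 106 and 102 CPM at day 0, against 31.8, 29.5 and 25.01 CPM in parental cells at day 2 and 275, 274 and 282 CPM at day 0 (interaction 2.76 ± 0.09, adjusted p = 5.27e-25). In the neural crest list 6 of 9 were lower, with a median of -1.42. Sox9, a regulator of crest and cartilage, had 4.81 to 5.13 CPM in Oct1 cKO cells at day 2 and 5.71 to 6.54 CPM at day 0, against 11.1 to 12.9 CPM in parental cells at day 2 and 2.11 to 2.56 CPM at day 0 (interaction -2.54, adjusted p = 1.94e-13).

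The series title names Smad factors, which carry signals of the TGF-beta family to the nucleus. Targets of these pathways moved in both directions, with 10 of 21 tested lower, 8 higher and a median of -0.21. Without replicate 3 of parental cells at day 2, 5 were higher, and with library sizes as the only scaling 4 were. Id3, a BMP-responsive inhibitor of helix-loop-helix factors, had 18, 17.2 and 20.7 CPM in Oct1 cKO cells at day 2 and 62.5, 66.9 and 78.8 CPM at day 0, against 28.6, 33.2 and 32.7 CPM in parental cells at day 2 and 38.4, 36.3 and 39.1 CPM at day 0. It fell further in Oct1 cKO cells (interaction -1.63 ± 0.11, adjusted p = 9.72e-15). Ski, a corepressor of Smads, rose by 0.92 in Oct1 cKO cells and by 1.83 in parental cells on the log2 scale, whereas Ccn2, a matricellular protein induced by TGF-beta, rose by 0.34 in Oct1 cKO cells and fell by 0.69 in parental cells. The list thus had no shared direction.

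Genes of the retinoic acid response mostly rose in both genotypes, 17 of 20 tested in each, and rose less in Oct1 cKO cells. In the interaction 15 were lower and 2 higher, the median Oct1 cKO course was 1.47 and the median parental course 3.66, and the median interaction was -1.24. Their summed level was 1060 to 1130 CPM in Oct1 cKO cells at day 2 and 283 to 307 CPM at day 0, against 2160 to 2260 CPM in parental cells at day 2 and 205 to 215 CPM at day 0. Meis2, a homeodomain partner of Hox proteins, had 34.0, 37.3 and 38.8 CPM in Oct1 cKO cells at day 2 and 13.8, 15.1 and 13.2 CPM at day 0, against 115, 123 and 113 CPM in parental cells at day 2 and 3.75, 5.29 and 5.40 CPM at day 0. Oct1 cKO cells started higher and ended lower (interaction -3.21 ± 0.14, adjusted p = 1.72e-19). Dhrs3, an enzyme that lowers retinaldehyde, had an interaction of -2.59 (adjusted p = 3.31e-17). The 2 members with a higher interaction were Crabp1, a cytoplasmic retinoic acid binding protein, and Stra8, known for the entry of germ cells into meiosis. The binding protein Crabp2 was lower.

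Hox genes of paralogue groups 1 to 5 followed the same pattern, with 8 of 15 tested lower, a median of -1.63, and summed levels of 364 to 391 CPM in Oct1 cKO cells at day 2 and 8.85 to 10.8 CPM at day 0, against 959 to 975 CPM in parental cells at day 2 and 6.2 to 7.75 CPM at day 0. Hoxc4, a homeodomain factor of axial patterning, had 11.6, 12.4 and 12.5 CPM in Oct1 cKO cells at day 2 and 3.53, 2.59 and 2.45 CPM at day 0, against 29.4, 27.98 and 32.1 CPM in parental cells at day 2 and 0.812, 1.24 and 1.05 CPM at day 0 (interaction -2.73 ± 0.25, adjusted p = 4.40e-12). Oct1 cKO cells started higher and ended lower, without overlap at either day. Its neighbour Hoxc5 had an interaction of -1.83 (adjusted p = 0.000456). Of 15 members 9 have 1 or 2 exons, and 3 of the 6 longer ones were lower.

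General and naive pluripotency genes fell less in Oct1 cKO cells. Of 26 tested, 19 were higher and 5 lower in the interaction, with a median of 0.95, a median Oct1 cKO course of -2.68 and a median parental course of -3.45. For 18 of them the courses went the same way and the Oct1 cKO course was smaller. Fgf4, a growth factor that drives ESCs out of the naive state, had 48.0, 52.3 and 49.9 CPM in Oct1 cKO cells at day 2 and 360, 363 and 349 CPM at day 0, against 6.2, 5.50 and 5.18 CPM in parental cells at day 2 and 441, 448 and 450 CPM at day 0. The fall was 7.14-fold in Oct1 cKO cells and 79.0-fold in parental cells (interaction 3.47 ± 0.10, adjusted p = 8.73e-26). Pou5f1, which encodes Oct4, had 458, 423 and 435 CPM in Oct1 cKO cells at day 2 and 1400, 1410 and 1740 CPM at day 0, the highest in replicate 3. Parental cells had 98.3, 89.3 and 91.9 CPM at day 2 and 853, 932 and 893 CPM at day 0, below Oct1 cKO cells at both days (interaction 1.47 ± 0.09, adjusted p = 1.30e-13). Tdgf1, a coreceptor for nodal, had 350 to 399 CPM in Oct1 cKO cells at day 2, against 903 to 954 CPM at day 0, and 108 to 112 CPM in parental cells at day 2, against 916 to 944 CPM at day 0 (interaction 1.75, adjusted p = 8.69e-22). Nanog, by contrast, fell by 5.21 in Oct1 cKO cells and by 5.43 in parental cells on the log2 scale, a difference of 0.21 (adjusted p = 0.0358).

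The 5 pluripotency genes that were lower were Dppa2, Lin28a, Stat3, Sall4 and Dppa4. Dppa2, a chromatin factor of early embryos, had 94.9, 88.9 and 104 CPM in Oct1 cKO cells at day 2 and 133, 129 and 137 CPM at day 0, against 237, 248 and 237 CPM in parental cells at day 2 and 86.8, 90.7 and 94.1 CPM at day 0. It fell in Oct1 cKO cells and rose in parental cells (interaction -1.88 ± 0.08, adjusted p = 1.44e-21). Genes of formative and primed pluripotency moved both ways, with 5 of 14 tested higher and 6 lower. Of the 8 members with at least 3 exons, 4 were higher and 2 lower. Sall2, a zinc-finger factor, had 11.8, 11.7 and 13.3 CPM in Oct1 cKO cells at day 2 and 9.70, 7.53 and 9.16 CPM at day 0, against 66.7, 72.3 and 70.7 CPM in parental cells at day 2 and 4.56, 4.84 and 4.34 CPM at day 0 (interaction -3.45 ± 0.14, adjusted p = 8.70e-22). Sox4 rose in both genotypes and had an interaction of -2.40, while Zic5, a zinc-finger factor, fell less in Oct1 cKO cells, with an interaction of 1.75 (adjusted p = 2.29e-22 and 7.41e-17).

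Genes of the 2-cell-like state, a rare condition of ESC cultures that resembles the early embryo, rose in both genotypes. All 15 tested were lower in the interaction, with a median of -1.53, and all were in the class of same direction and smaller in Oct1 cKO cells. Their summed level was 574 to 673 CPM in Oct1 cKO cells at day 2 and 204 to 207 CPM at day 0, against 447 to 556 CPM in parental cells at day 2 and 46.8 to 49.5 CPM at day 0. The smaller course thus began from a higher day 0 level, with a median difference between genotypes of 2.15 at day 0 and 0.64 at day 2 on the log2 scale, both higher in Oct1 cKO cells. Zscan4d, a zinc-finger protein of this state, had 92.3, 92.7 and 106 CPM in Oct1 cKO cells at day 2 and 31.3, 31.4 and 33.4 CPM at day 0, against 95.6, 82.6 and 80.8 CPM in parental cells at day 2 and 5.44, 6.30 and 7.13 CPM at day 0. The genotypes were apart at day 0 and overlapped at day 2. Zscan4, Tcstv and Usp17 genes are near-identical copies, so the level of a single member is uncertain and members may share reads.

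Imprinted genes had 13 of 24 tested lower and 6 higher, with a median of -0.88. Peg10, a retrotransposon-derived gene of the placenta that is expressed from the paternal allele, had 2096, 2016 and 2138 CPM in Oct1 cKO cells at day 2 and 242, 245 and 207 CPM at day 0, against 5251, 5810 and 5669 CPM in parental cells at day 2 and 48.5, 52.2 and 53.4 CPM at day 0. The rise was 9.01-fold in Oct1 cKO cells and 109-fold in parental cells (interaction -3.59 ± 0.08, adjusted p = 8.58e-30), and the genotypes exchanged places. Mest, a paternally expressed hydrolase, had 251, 248 and 256 CPM in Oct1 cKO cells at day 2 and 89.8, 90.0 and 82.3 CPM at day 0, against 1270, 1392 and 1276 CPM in parental cells at day 2 and 58.7, 56.6 and 56.9 CPM at day 0 (interaction -2.99 ± 0.07, adjusted p = 1.25e-28). H19, a maternally expressed noncoding RNA, rose 11-fold in Oct1 cKO cells and 33.8-fold in parental cells.

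Glycolysis genes leaned the other way, with 16 of 20 tested higher and 1 lower and a median of 0.69, from a median Oct1 cKO course of 0.59 and a median parental course of -0.11. Without replicate 1 of parental cells at day 2, 12 were higher and the median was 0.57. Between genotypes, 13 members were lower and 4 higher in Oct1 cKO cells at day 0 (median -0.33). At day 2, 1 was lower and 15 were higher (median 0.37), so the courses began from a lower day 0 level. Pfkp, an isoform of phosphofructokinase, had 403, 442 and 444 CPM in Oct1 cKO cells at day 2 and 361, 377 and 348 CPM at day 0, against 135, 125 and 122 CPM in parental cells at day 2 and 858, 864 and 885 CPM at day 0. It rose 1.19-fold in Oct1 cKO cells and fell 6.82-fold in parental cells (interaction 3.02 ± 0.07, adjusted p = 8.58e-30). Gpi1, the isomerase that follows hexokinase, had 2144, 2227 and 2179 CPM in Oct1 cKO cells at day 2 and 854, 844 and 939 CPM at day 0, against 1003, 1065 and 1074 CPM in parental cells at day 2 and 1164, 1195 and 1199 CPM at day 0 (interaction 1.49 ± 0.06, adjusted p = 4.94e-21). Aldoc, an aldolase, had 85.2 to 92.3 CPM in Oct1 cKO cells at day 2 and 16.7 to 19.1 CPM at day 0, against 62.3 to 76.5 CPM in parental cells at day 2 and 60.1 to 63.7 CPM at day 0. Slc2a1, a glucose transporter, was the member with a lower interaction, at -0.84.

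Rises that were larger in Oct1 cKO cells included Col4a1, Col4a2 and Fbp2. Col4a1 and Col4a2, adjacent genes for the chains of collagen IV, had interactions of 1.65 ± 0.07 and 1.90 ± 0.08 (adjusted p = 1.59e-21 and 4.15e-22). Col4a1 had 972, 968 and 889 CPM in Oct1 cKO cells at day 2 and 140, 141 and 129 CPM at day 0, against 348, 333 and 346 CPM in parental cells at day 2 and 151, 160 and 156 CPM at day 0. Both belong to the extraembryonic endoderm list, where 7 of 18 tested were higher and 3 lower with a median of 0.26, which was -0.08 in the fit of the 12 libraries alone. In that list Gata4 agreed and Sox17 was not called (interaction -0.59, adjusted p = 0.137), so the list did not move as a whole. Fbp2, a fructose bisphosphatase of muscle, had 151, 141 and 130 CPM in Oct1 cKO cells at day 2 and 3.23, 2.12 and 4.46 CPM at day 0, against 14.8, 16.7 and 17.6 CPM in parental cells at day 2 and 2.69, 3.54 and 4.22 CPM at day 0. The genotypes overlapped at day 0 and the rise was 41.8-fold in Oct1 cKO cells and 4.68-fold in parental cells (interaction 3.16 ± 0.22, adjusted p = 4.33e-14).

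Among falls that were larger in Oct1 cKO cells, Fst, a secreted inhibitor of activin, had 1.39, 1.17 and 1.14 CPM in Oct1 cKO cells at day 2 and 26.8, 24.9 and 27.7 CPM at day 0, against 10.8, 9.55 and 7.62 CPM in parental cells at day 2 and 17.9, 15.4 and 18.4 CPM at day 0. The fall was 21.4-fold in Oct1 cKO cells and 1.84-fold in parental cells (interaction -3.54 ± 0.19, adjusted p = 1.51e-18). Ntn1, a secreted guidance cue, had 4.88 to 5.01 CPM in Oct1 cKO cells at day 2 and 62.2 to 75.1 CPM at day 0, against 20.3 to 22.4 CPM in parental cells at day 2 and 27.8 to 29.9 CPM at day 0 (interaction -3.39, adjusted p = 1.17e-23). B3galt6, a single-exon gene for a galactosyltransferase of proteoglycan linkers, had an interaction of -3.21 (adjusted p = 3.71e-15). All 3 were higher in Oct1 cKO cells at day 0 and lower at day 2.

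Changes called in parental cells alone included Zadh2, a reductase of prostaglandins and related ketones. It had 7.92, 8.16 and 9.43 CPM in Oct1 cKO cells at day 2 and 7.67, 9.26 and 8.47 CPM at day 0, against 54.3, 59.2 and 57.0 CPM in parental cells at day 2 and 5.38, 4.22 and 4.03 CPM at day 0 (interaction -3.64 ± 0.15, adjusted p = 9.72e-22). Its neighbour Tshz1, a zinc-finger regulator, rose in both genotypes, with 5.13 to 6.08 CPM in Oct1 cKO cells at day 2 and 2.26 to 3.77 CPM at day 0, against 53.03 to 57.8 CPM in parental cells at day 2 and 2.11 to 2.50 CPM at day 0. Atp6v0a4, a subunit of the proton pump, fell only in parental cells. It had 6.34, 5.31 and 6.42 CPM in Oct1 cKO cells at day 2 and 5.56, 6.04 and 6.34 CPM at day 0, against 2.44, 1.51 and 1.25 CPM in parental cells at day 2 and 17.6, 15.9 and 15.6 CPM at day 0 (interaction 3.21 ± 0.21, adjusted p = 3.80e-16).

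Changes called in Oct1 cKO cells alone included Ndufa4l2, a mitochondrial protein known as a target of hypoxia signalling. It had 92.9, 85.1 and 102 CPM in Oct1 cKO cells at day 2 and 7.22, 5.88 and 9.35 CPM at day 0, against 15.96, 18.99 and 19.5 CPM in parental cells at day 2 and 14.9, 19.2 and 18.1 CPM at day 0 (interaction 3.56 ± 0.19, adjusted p = 1.08e-12). Eda2r, a receptor of the TNF family induced by p53, had 77.8, 81.2 and 76.9 CPM in Oct1 cKO cells at day 2 and 23.8, 25.1 and 16.4 CPM at day 0, against 79.2, 84.1 and 79.5 CPM in parental cells at day 2 and 74.8, 74.8 and 74.9 CPM at day 0. Here the genotypes differed at day 0 and overlapped at day 2 (interaction 1.75 ± 0.11, adjusted p = 2.63e-13). In the direction of a fall, Lcmt2, which takes part in the modification of a tRNA base, had 1.52 to 2.47 CPM in Oct1 cKO cells at day 2 and 17.2 to 20.7 CPM at day 0, against 10.3 to 11.3 CPM in parental cells at day 2 and 11.4 to 12 CPM at day 0. Trmt12, another gene of tRNA modification, and Zfp324, a zinc-finger gene, had interactions of -3.10 and -3.80 (adjusted p = 1.94e-14 and 1.82e-15).

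Courses that agreed included large changes. Gata4, a factor of endoderm and heart, had 29.6, 31.5 and 29.0 CPM in Oct1 cKO cells at day 2 and 1.96, 2.27 and 2.38 CPM at day 0, against 21.0, 18.3 and 20.8 CPM in parental cells at day 2 and 1.62, 1.63 and 1.55 CPM at day 0 (interaction 0.12 ± 0.22, adjusted p = 0.683). Klf2, a factor of naive pluripotency, had 16.4, 13.4 and 18.2 CPM in Oct1 cKO cells at day 2 and 240, 223 and 273 CPM at day 0, against 18.5, 17.3 and 15.9 CPM in parental cells at day 2 and 315, 308 and 302 CPM at day 0 (interaction 0.21 ± 0.12, adjusted p = 0.122). Without replicate 3 of Oct1 cKO cells at day 0 the interaction of Klf2 was 0.28 and was called. Inhba, an activin subunit, fell by 4.45 in Oct1 cKO cells and by 4.34 in parental cells on the log2 scale. Mmp15, a membrane metalloproteinase, rose by 3.85 in Oct1 cKO cells and by 3.68 in parental cells. Of the class as a whole, 1404 of the 2372 genes fell and 968 rose, with median absolute changes of 0.66 in Oct1 cKO cells and 0.64 in parental cells.

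Markers of other cell types were read across the same groups. The fibroblast list, which would report feeder cells, summed to 308 to 354 CPM in Oct1 cKO cells at day 2 and 735 to 755 CPM at day 0, against 421 to 454 CPM in parental cells at day 2 and 1920 to 2020 CPM at day 0. Parental cells thus held the most fibroblast-marker RNA at day 0, and 11 of the 20 tested members had a higher interaction and 3 a lower one, with a median of 0.51. Col1a1, the main collagen of fibroblasts, had 37.9, 46.9 and 50.01 CPM in Oct1 cKO cells at day 2 and 158, 152 and 154 CPM at day 0, against 58.2, 55 and 56.8 CPM in parental cells at day 2 and 522, 561 and 538 CPM at day 0. The part of these markers in other interactions was not tested. Of 10 trophoblast genes tested, 5 were lower and 1 higher, and Tpbpa and Prl3d1, which mark differentiated trophoblast, had 0 counts in all 12 libraries. Those 2 are among the 10 only through their day 6 counts and could not be called in the interaction.

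Of the remaining lists, proliferation genes had 12 of 19 tested higher and 1 lower (2 lower when any of 8 of the 12 libraries was left out), with a median of 0.33. With library sizes as the only scaling 5 were lower and the median was 0.15. Neural progenitor genes, 5 of 13 having 1 or 2 exons, had 4 of 13 lower and 1 higher (0 higher without replicate 3 of Oct1 cKO or of parental cells at day 2), and neuron genes had 5 of 13 lower and 4 higher. Stmn2, a tubulin-binding protein of neurons, fell less in Oct1 cKO cells, with 114 to 121 CPM in Oct1 cKO cells at day 2 and 306 to 356 CPM at day 0, against 26.9 to 30.1 CPM in parental cells at day 2 and 268 to 276 CPM at day 0. Targets of p53 had 9 of 19 higher and 6 lower, genes of the epithelial to mesenchymal change had 7 of 16 in each direction, and motile cilium genes had 5 of 19 higher and 3 lower. Krt8, an epithelial keratin, had an interaction of -2.28 (adjusted p = 1.06e-15), and Iqca was the highest of the cilium list.

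The interaction also varied with gene structure. Exon numbers throughout are the most exons in any annotated transcript of a gene. Among protein-coding genes that averaged at least 1 on the log2 CPM scale, 61.6% of 211 single-exon genes were lower and 10.9% higher, with a median of -0.70. Of 399 genes with 2 exons, 55.4% were lower and 17.8% higher. Of 5438 genes with over 10 exons, 23.9% were lower and 44.6% higher, with a median of 0.16. Single-exon genes stood, in the median over genes and relative to the mean of all libraries, at -0.26, -0.30 and -0.19 in the Oct1 cKO libraries at day 2 and 0.22, 0.26 and 0.34 at day 0. In parental cells they stood at 0.15, 0.15 and 0.13 at day 2 and -0.03, -0.03 and -0.07 at day 0. Within 6 bins of GC content, genes with 1 or 2 exons had medians of -0.72 to -0.29 and genes with over 10 exons of -0.05 to 0.36. Small nucleolar RNA genes had 46 of 77 higher, and bidirectional promoter noncoding RNAs had 35 of 72 lower and 7 higher. Antisense genes had 112 of 408 lower and 28 higher (median -0.80), processed transcripts 76 of 270 lower and 44 higher, and lincRNAs 145 of 658 lower and 109 higher. Processed pseudogenes, with 92 of 709 higher and 61 lower, and sense intronic genes, with 19 of 49 higher and 4 lower, had more members higher than lower. Over all tested genes 30.1% were higher and 26.9% lower. The shares of antisense genes and processed transcripts called lower were close to that 26.9%, and that of lincRNAs was below it. The share of processed pseudogenes called higher was well below the 30.1%. Sox1, Jun and B3galt6 have a single exon and Isg15, Sall2, Tshz1, Zadh2, Jrk and Lcmt2 have 2. Kdr, Irgm1, Fgf4, Peg10 and Col4a1 each have at least 3 exons. Genes with 3 to 5 exons also leaned lower, and recounts of lists from 3 exons up keep such genes. The part of gene structure in the interactions of all these genes was not tested.

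**Figure D5:**
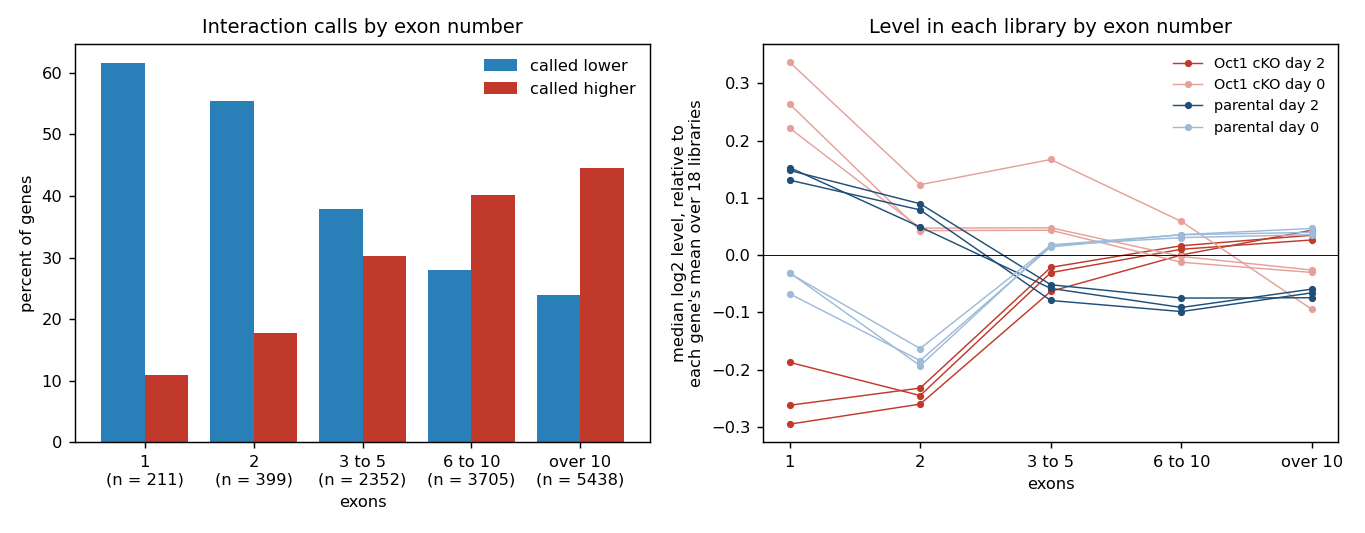
Left, percent of protein-coding genes, averaging at least 1 in log2 CPM, whose interaction was called lower or higher, by number of exons. Right, median log2 level of the same genes in each library of days 0 and 2, relative to each gene's mean over 18 libraries; single-exon genes are lowest in Oct1 cKO cells at day 2 and highest in Oct1 cKO cells at day 0.

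The interaction was next read as a gap between genotypes, which was called for 67.3% of tested genes at day 2 (33.7% higher and 33.6% lower in Oct1 cKO cells) and 53.5% at day 0. Of the 5526 genes with a higher interaction, a difference was called only at day 2 for 1686 and only at day 0 for 1015, it changed sign for 1625, widened for 725 and narrowed for 397. With library sizes as the only scaling, 1073 of the genes with a higher interaction differed only at day 2. Of the 4937 genes with a lower interaction, 1744 differed only at day 2, 905 only at day 0, 1364 changed sign, 483 widened and 341 narrowed. Kdr and Egr1 were among those without a call at day 0, with differences of 0.42 and 0.25 (adjusted p = 0.18 and 0.29). The interaction and these calls share libraries, so the counts describe where each gap arose and test nothing further.

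Day 6 libraries, which share none with the courses, gave a later reading of the level. Of the 1712 genes with an interaction at least 2-fold higher, 784 (45.8%) were higher and 400 (23.4%) lower in Oct1 cKO cells at day 6. Of the 2496 at least 2-fold lower, 1375 (55.1%) were lower and 597 (23.9%) higher. The same day 6 contrast was called for 74.5% of all tested genes, with 36.7% higher and 37.8% lower. Kdr stayed lower, with 12.4, 13.1 and 13.1 CPM in Oct1 cKO cells at day 6, against 211, 225 and 242 CPM in parental cells (-4.13 ± 0.07, adjusted p = 3.76e-35). Egr1 and Irgm1 were also lower at day 6, by 2.94 and 3.25 on the log2 scale. Isg15 and Peg10 went the other way, being lower in Oct1 cKO cells at day 2 and higher at day 6. Peg10 differed by -1.42 at day 2 and 2.27 at day 6 on the log2 scale. Isg15 had 6.43, 7.76 and 6.55 CPM in Oct1 cKO cells at day 6, against 0.498, 0.675 and 0.679 CPM in parental cells. Iqca was higher in Oct1 cKO cells at day 2 and lower at day 6, where no library of either genotype exceeded 0.522 CPM.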

How the data were processed

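The authors deposited 1 table of whole-number read counts per Ensembl gene, 21995 genes in 18 libraries, with no normalization. Per the labels' protocols, cells were trypsinized, RNA extracted with Trysol, and libraries made from total RNA by Illumina's standard procedures. Per the submitters' processing notes, Novoalign, DESeq2 1.10.0 and the builds mm10 and GRCm38 were used, with no role given. Not given in the sources used here are the counter, the annotation, the strand setting and the handling of multiply mapped reads. Reads of overlapping or antisense partners therefore cannot be separated, and near-identical copies are uncertain.

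Columns were matched to libraries by title, and libraries to groups by source label. No pair of replicates was within sampling noise (chi-square per degree of freedom 1.24 to 12), so all were kept. The deposited counts entered the quasi-likelihood test of edgeR 4.0.16 in R 4.3.3 (filterByExpr with a minimum count of 10 and a minimum total of 15, TMM factors, robust fit), with all 18 libraries, a coefficient per group and contrasts for each course, each day and the interaction. The filter ran over all 18 libraries, so some tested genes passed through day 6 alone. In the fit of the 12 libraries 17284 genes passed and 10106 were called. Adjusted p is the Benjamini-Hochberg value over the 18352 genes tested, called under 0.05, and an SE is derived from the F statistic. Tests were checked on simulated counts in which few genes had an interaction and the genotypes were otherwise alike. Since most genes differed here, that check does not bear on the choice of scaling. CPM use TMM library sizes and are not scaled to gene length, so they compare groups and not genes. Alternatives were DESeq2 1.42.0 or its size factors, library sizes alone, no filter, the 12 libraries alone, minimum folds of 2 and 1.5 (glmTreat), leaving out chromosome 11, and leaving out each library.

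Positions and exon numbers (the most in any annotated transcript) came from GENCODE M21, matched by gene ID for 21977 genes, and promoters from RefSeq. The text names Pou2f1, Kdr, Irgm1, Egr1 and Iqca. For each class and direction it takes the 3 genes with the largest interaction among called genes averaging at least 1 in log2 CPM, with an official symbol and separated libraries. For courses that agree it takes the 3 that rose and the 3 that fell most, and for each of 22 lists up to 3 members with the smallest adjusted p. Some of these 100 genes are given only in counts or are not reported here. Other list members, such as Pou5f1, Nanog, Crabp1, Col1a1 and Sox17, were chosen after their values were seen, to complete a count or for their known role. The genes, lists and tests were all chosen with earlier results of these data known.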

Additional observations from a re-analysis of the deposited data

Results flagged for a closer look

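The 4 example genes stood out because every library of the Oct1 cKO course moved against every library of the parental course and the test of the difference itself, the interaction in edgeR's quasi-likelihood fit, was called. The difference between courses on the log2 scale was -4.22 for Kdr, -5.33 for Irgm1 and -4.56 for Egr1, which fell in Oct1 cKO cells and rose in parental cells, and 4.66 for Iqca, which did the reverse. Opposite courses with a called interaction were found for 1599 genes in all, 852 with a higher and 747 with a lower interaction. These genes were named as examples of this pattern with the results known, so the values describe it and do not add support.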

How the results depend on the processing

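Of 2074 pairs of a named gene and an alternative, 2048 kept both direction and side of the threshold. Requiring an interaction of at least 2-fold left 1712 genes higher and 2496 lower, and the sort became 3666 agreeing, 5711 undecided, 880 smaller, 874 larger, 909 opposite, 855 parental only, 659 Oct1 cKO only, 31 with an interaction alone and 3282 with 1 course without interaction. Testing against 1.5-fold gave 2092 higher and 2447 lower, with 3666 agreeing, 5291 undecided, 899 smaller, 1044 larger, 764 parental only, 688 Oct1 cKO only, 4 with an interaction alone and 3344 with 1 course. Both follow from the stricter call. With library sizes alone 4589 genes fell in parental cells, against 6913, and the interactions of Gata4, Mmp15 and Sgce, none of them called, turned to -0.057, -0.014 and -0.0707; the cause was not tested. Without the filter 2639 genes had 1 course called and 3344 no call, against 1459 and 1455 with it, since more low genes were tested. Limiting the test to genes with at least 3 exons, an alternative chosen after seeing the data, left 925 without a call.

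Leaving out each library gave 4944 to 5627 genes higher and 4710 to 5136 lower, 1450 to 1644 opposite and 2142 to 2458 agreeing. Pou2f1 ranged from -0.24, called without replicate 3 of Oct1 cKO cells at day 0, to 0.00426 without replicate 2 of that group. Sgce ranged from -0.000523, without replicate 3 of parental cells at day 0, to 0.18. Without replicate 2 of Oct1 cKO cells at day 0, Arg1 and Irx3 lost their calls at -3.48 and -0.92. Klf2 gained a call, at 0.28 without replicate 3 of Oct1 cKO cells at day 0 and 0.33 without replicate 2 of Oct1 cKO cells at day 2. No paired analysis was possible because the labels give no replicate numbers that the groups share. Genes under about 1 CPM rest on few counts per library, and their folds are imprecise.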

Other observations

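Apob, Arg1, Nphs1 and Prmt8 also had large interactions. Apob, which encodes the scaffold of lipoproteins, had 0.444, 1.17 and 1.34 CPM in Oct1 cKO cells at day 2 and 4.44, 4.16 and 3.01 CPM at day 0, against 10.3, 9.09 and 9.92 CPM in parental cells at day 2 and 1.19, 1.74 and 1.30 CPM at day 0 (interaction -4.73 ± 0.33, adjusted p = 1.30e-14 by edgeR's quasi-likelihood test). It went against Col4a1 and Col4a2 of the same list. Arg1, the arginase of the urea cycle, had 6.59, 7.70 and 7.42 CPM in Oct1 cKO cells at day 2 and 66.8, 80.0 and 69.1 CPM in parental cells at day 2, from at most 0.235 CPM in any day 0 library, where counts were too few for a fold. Nphs1, known for the filter of the kidney, and Prmt8, an arginine methyltransferase, fell in both genotypes and fell less in Oct1 cKO cells, with interactions of 3.46 and 3.52 (adjusted p = 1.09e-17 and 7.35e-12).

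Cell cycle genes gave small interactions in the higher direction. Bub1, a kinase of the spindle checkpoint, had 294, 312 and 299 CPM in Oct1 cKO cells at day 2 and 211, 200 and 178 CPM at day 0, against 216, 232 and 216 CPM in parental cells at day 2 and 266, 255 and 272 CPM at day 0 (interaction 0.88, adjusted p = 2.58e-13). Mdm2, the ubiquitin ligase that limits p53, was opposite in the same sense at 0.60, while Btg2, an antiproliferative target of p53, was opposite in the other sense at -1.37 (adjusted p = 1.26e-10 and 1.39e-16). By chromosome, the median interaction of autosomes ranged from -0.05 on chromosome 11 to 0.13 on chromosome 14.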
